A study of Mus musculus with 24 samples.

Results

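The 9 genes described here handle iron and heme in macrophages: Hmox1, Blvrb, Fth1, Ftl1, Slc40a1, Slc11a1, Slc48a1, Tfrc and Cd163. The list is given by gene name, and all 9 were found among the 45706 genes of the deposited count table. The table holds bulk RNA-seq reads of 24 mouse macrophage libraries in 8 groups of 3. Microglia (MG), Kupffer cells (KC), peritoneal macrophages (PM) and alveolar macrophages (AM) were each sequenced directly after sorting (labelled ex) and as macrophage-like cells grown in culture (labelled in, called LCs, for like cells, here). All cells came from female C57BL/6J mice aged 8 to 12 weeks, with no mutant allele named.

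Liver and lung were digested with collagenase and DNase, whereas brain was homogenised cold without enzyme and peritoneal cells were obtained by lavage. Sorted cells were gated by flow cytometry on CD45 and CD11b. F4/80 and TIM-4 were added for KC, F4/80 and CD115 for PM, and SiglecF for AM. Cultures were started from unsorted tissue suspensions, with 1 liver per flask and several pooled animals per flask for the other tissues, in medium with serum. The cells that gave rise to the cultures were therefore not selected by a gate. MG-LCs received M-CSF and IL-34, KC-LCs and PM-LCs received M-CSF, and AM-LCs received GM-CSF. The first 3 were kept at low oxygen with added glucose, and AM-LCs at atmospheric oxygen without it. Cytokine, oxygen, glucose and culture therefore cannot be told apart for any one population. The labels do not say which animals gave which library, so p-values here measure the spread between libraries.

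Some tissue macrophages take up aged red cells, break down their hemoglobin and return the iron to the circulation. Cd163 takes up hemoglobin bound to haptoglobin, the heme transporter Slc48a1 (HRG1) moves heme out of the lysosome, and Hmox1 (heme oxygenase 1) opens the heme ring. Blvrb reduces biliverdins, Fth1 and Ftl1 are the heavy and light chains of ferritin, which stores the iron, and Slc40a1 (ferroportin) exports it. Slc11a1 (NRAMP1) moves divalent metal out of the phagosome and Tfrc is the transferrin receptor. Iron regulatory proteins bind a stem-loop, the iron-responsive element, in some of these transcripts. They hold back translation from elements in a 5′ UTR and stabilise Tfrc mRNA at those in its 3′ UTR, a layer of control that read counts of mRNA do not measure in full.

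The elements are printed to show which of the 9 genes hold the letters of such a stem-loop. Annotated UTRs (GENCODE, GRCm38) were searched on the transcript strand for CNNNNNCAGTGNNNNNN with all 5 stem bases on the left paired to those on the right, G-T pairs allowed. It was found in 4 of the 9 genes and in 160 of 21901 protein-coding genes (0.731%). The 3 elements in 5′ UTRs are given 5′ to 3′ with the loop bases CAGTGN in capitals and 5 flanking bases on either side. They lie at chr19:9982733-9982759 (plus strand) in Fth1 (chr19:9980598-9985098), chr7:45459780-45459806 (minus) in Ftl1 (chr7:45457944-45459884) and chr1:45925466-45925492 (minus) in Slc40a1 (chr1:45908068-45926523).
Fth1: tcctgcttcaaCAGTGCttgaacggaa
Ftl1: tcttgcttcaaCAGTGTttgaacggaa
Slc40a1: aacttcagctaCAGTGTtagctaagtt

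The 3′ UTR of Tfrc (chr16:32608920-32632794) holds 4 such elements on the plus strand, at chr16:32631220-32631246, chr16:32631599-32631625, chr16:32631664-32631690 and chr16:32631711-32631737, printed in that order.
Tfrc a: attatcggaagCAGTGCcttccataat
Tfrc b: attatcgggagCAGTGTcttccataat
Tfrc c: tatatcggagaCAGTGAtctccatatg
Tfrc d: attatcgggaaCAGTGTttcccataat
A match describes these letters only, and neither a match nor its absence shows which genes iron regulatory proteins control. Hmox1 (chr8:75093621-75100589), Blvrb (chr7:27447978-27466144), Slc11a1 (chr1:74375195-74386062), Slc48a1 (chr15:97778520-97792692) and Cd163 (chr6:124304656-124330527) had no match in their annotated UTRs. Of the other iron and heme genes described further on, 2 held the pattern, Alas2 and Bola3.

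Libraries held 29569486 to 47105111 reads assigned to genes, and values are given as CPM, the reads of a gene scaled to a common total per library. A gene without a read can be at up to 0.0661 to 0.115 CPM, depending on the library (3 counts, counting error only). Sorted groups carried the markers of their labels, with 17070 CPM or more summed over each list. Summed levels were lower in the cultures, at 1035 to 3219 CPM of microglial markers in MG-LCs against 29090 to 30130 in sorted MG, and 55.8 to 208 CPM of Kupffer markers in KC-LCs. PM-LCs held 87.2 to 171 CPM of peritoneal and AM-LCs 2856 to 10340 CPM of alveolar markers, so the markers of origin were lower in every culture, with the least left in KC-LCs and PM-LCs. Kupffer markers did not set KC-LCs apart, since MG-LCs (331 to 2320 CPM) and PM-LCs (811 to 2063 CPM) held more of them. AM-LCs held 37.9 to 103 CPM. In KC-LCs the Kupffer sum was nearly all Cd5l (93.6, 22.6 and 16.7 CPM) and Folr2 (114, 106 and 38.5 CPM). Some libraries stood apart. MG-LC replicate 1 held 30930 CPM of fibroblast and mesothelial markers against 7.39 and 1012 CPM in the other MG-LC libraries. PM-LC replicate 2 (2208 against 22.9 and 366 CPM) and AM-LC replicate 3 (1667 against 17.1 and 181 CPM) were the richest in them in their groups. Sorted KC replicate 1 had the lowest Kupffer markers of its group (17070 against 28690 and 29780 CPM) and the highest hepatocyte (243 against 106 and 118 CPM) and erythroid markers (34.6 against 12.8 and 3.79 CPM). Erythroid markers were at 15.7 to 17.6 CPM in sorted MG and at or below 1.78 CPM elsewhere. Sorted AM replicate 1 had the most pan-macrophage markers of its group (53740 against 39720 and 36480 CPM). The part of these markers in the results was not tested, and results that rest on one of these libraries are given with and without it. In bulk RNA, fewer cells of a type and less RNA per cell cannot be told apart.

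In MG, PM and AM, the iron genes were mostly more abundant in the cultures than in the sorted cells. In KC, 6 of the 9 genes did not pass in either direction. Shares over all genes are given by population below. Of 36 comparisons of a gene in a population, 35 could be tested. Among these, 22 were higher in the culture, 3 were higher in the sorted cells and 10 did not pass an adjusted p of 0.05 (edgeR quasi-likelihood test, Benjamini-Hochberg adjustment over all genes tested). Fth1 was higher in all 4 cultures, as were 3.87% of the genes tested in every population. The 3 changes in the other direction were Slc40a1 in KC and Cd163 in KC and PM, which encode the iron exporter and the hemoglobin receptor.

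In MG, 7 of the 9 genes were higher in MG-LCs, where 25.2% of all genes tested were higher. DESeq2 called 6 of them, without an adjusted p for Cd163. In sorted MG 0 were higher, where 21.2% of all genes were. In KC, 1 was higher in KC-LCs (14.4% of all genes) and 2 were higher in sorted KC (19.4%). In PM, 7 were higher in PM-LCs (16.8%) and 1 in sorted PM (12.1%). In AM, 7 of the 8 genes tested were higher in AM-LCs (25.9%) and 0 in sorted AM (22.9%). The median log2 fold change, sorted minus cultured, was -2.84 over the genes tested in MG, -0.14 in KC, -2.17 in PM and -1.36 in AM, against -0.03, 0.01, -0.01 and -0.04 over all genes. The counts higher in culture lay above the background of that direction in MG, PM and AM, and the counts higher in sorted cells did not. In KC 6 of the 9 genes did not pass by edgeR, but that count depends on the tool. DESeq2 called 7 genes in KC and one model of all 24 libraries called 6, which added Ftl1, Slc48a1 and Tfrc as higher in KC-LCs in both cases, and DESeq2 added Slc11a1 as higher in sorted KC. For the 2 counts of 0, no gene reached an unadjusted p of 0.05 in that direction by edgeR, and neither limma-voom nor DESeq2 called one.

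**Figure D1:**
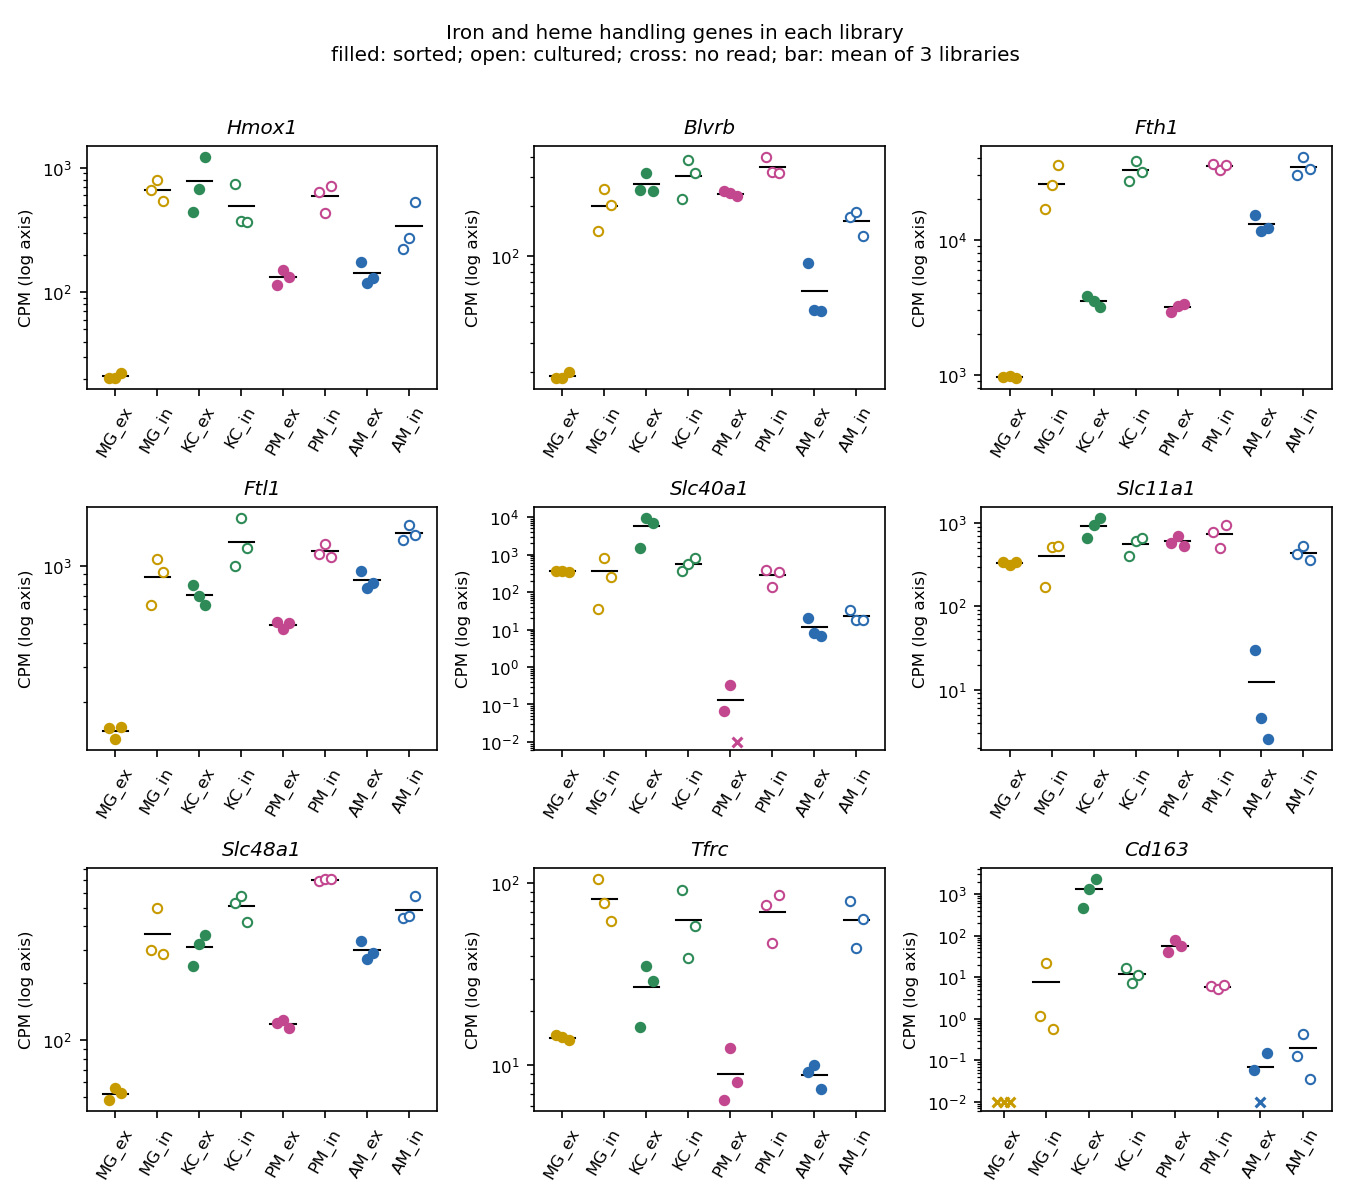
CPM of each of the 9 genes (log axis) in every library, with filled points for sorted cells, open points for cultures, a bar at the mean of 3 and a cross for a library without a read. Most genes sit closer together in the 4 cultures, and higher than in the sorted cells in MG, PM and AM. Slc40a1 and Cd163 are highest in sorted KC.

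Hmox1 makes biliverdin, carbon monoxide and ferrous iron from heme. Sorted MG held 20.3, 20.2 and 22.4 CPM of Hmox1, sorted KC 436, 679 and 1210, sorted PM 113, 151 and 131, and sorted AM 175, 119 and 129. In the cultures it stood at 661, 799 and 538 CPM in MG-LCs, 735, 373 and 365 in KC-LCs, 639, 432 and 710 in PM-LCs, and 220, 273 and 528 in AM-LCs. Sorted MG were the lowest and sorted KC the highest group on average, and sorted and cultured libraries overlapped only in KC. The log2 fold change, sorted minus cultured, was -5.04 ± 0.27 (SE, adjusted p = 0.000581) in MG, where the mean was 31.8 times higher in culture, and -2.17 ± 0.24 (adjusted p = 0.000793) in PM. In AM it was -1.30 ± 0.36 (adjusted p = 0.0218), a call lost without sorted AM replicate 2 (-1.19, adjusted p = 0.0868) or replicate 3 (-1.22, adjusted p = 0.0837). In KC it was 0.70 ± 0.45 (adjusted p = 0.264), and 0.97 (adjusted p = 0.0975) without sorted KC replicate 1.

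Blvrb, a biliverdin reductase, was at 18.3, 18.4 and 19.97 CPM in sorted MG and 253, 320 and 247 in sorted KC. It was at 248, 240 and 231 CPM in sorted PM, and 90.7, 47.0 and 46.9 in sorted AM. In culture it was at 142, 254 and 205 CPM in MG-LCs, 222, 383 and 317 in KC-LCs, 396, 323 and 317 in PM-LCs, and 172, 186 and 133 in AM-LCs. Sorted MG were again lowest, and neighbouring groups in the order of means overlapped from PM-LCs down to AM-LCs. Its log2 fold change was -3.45 ± 0.26 (adjusted p = 0.000801) in MG and -1.41 ± 0.28 (adjusted p = 0.00545) in AM. It was -0.14 ± 0.27 (adjusted p = 0.727) in KC. In PM the change of -0.53 ± 0.16 (adjusted p = 0.0429) rested on single libraries. It did not pass without sorted PM replicate 1 (adjusted p = 0.137), 2 (0.145) or 3 (0.172), nor without PM-LC replicate 1 (0.145) or 2 (0.0544).

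Fth1, the ferritin chain that oxidises iron for storage, took 1.93% to 3.61% of all reads in the cultures and 0.114% to 1.58% in the sorted groups. Sorted MG held 956, 982 and 941 CPM, sorted KC 3799, 3522 and 3194, sorted PM 2933, 3217 and 3352, and sorted AM 15200, 11600 and 12270. The cultures held 16750, 25200 and 35330 CPM in MG-LCs, 27200, 38380 and 31870 in KC-LCs, 36480, 32820 and 35330 in PM-LCs, and 29890, 40570 and 33080 in AM-LCs. Every culture library was above every sorted library, and each culture overlapped with its neighbour in the order of means. Sorted minus cultured, the log2 change was -3.18 ± 0.40 in KC (adjusted p = 0.00173), -3.46 ± 0.17 in PM (adjusted p = 3.33e-05) and -1.42 ± 0.19 in AM (adjusted p = 0.00115). The mean rose 9.27 times in KC, 11.0 times in PM and 2.65 times in AM, whose sorted cells already held the most of the sorted groups. In MG it was -4.79 ± 0.74 (adjusted p = 0.00475), and without sorted MG replicate 1, 2 or 3 the change remained between -4.77 and -4.80 with adjusted p of 0.0694, 0.0714 and 0.0665.

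Ftl1, the light chain, was at 146, 128 and 149 CPM in sorted MG, 790, 698 and 625 in KC, 512, 473 and 507 in PM, and 935, 771 and 816 in AM. The cultures held 627, 1077 and 931 CPM in MG-LCs, 998, 1748 and 1231 in KC-LCs, 1152, 1289 and 1101 in PM-LCs, and 1356, 1613 and 1437 in AM-LCs. Within each population no sorted library reached the lowest culture library. Fitted log2 fold changes were -2.68 ± 0.29 (adjusted p = 0.00172) in MG, -1.25 ± 0.15 (adjusted p = 0.00127) in PM and -0.82 ± 0.13 (adjusted p = 0.0026) in AM. In KC it was -0.88 ± 0.30 (adjusted p = 0.0563), and it passed without sorted KC replicate 1 (-0.98, adjusted p = 0.04) or KC-LC replicate 1 (-1.08, adjusted p = 0.0449).

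Reads of the 2 ferritin chains were therefore in another proportion in culture. There were 6.30 to 7.64 Fth1 reads per Ftl1 read in sorted MG, 4.81 to 5.11 in sorted KC, 5.73 to 6.80 in sorted PM and 15.0 to 16.3 in sorted AM. In culture there were 23.4 to 38.0 in MG-LCs, 22 to 27.3 in KC-LCs, 25.5 to 32.1 in PM-LCs and 22 to 25.2 in AM-LCs. Every culture library lay above every sorted library, and sorted AM lay apart from the other sorted groups. The ratio compares libraries and is not a ratio of proteins. Of the 50-base windows in the Ftl1 transcripts, 58.4% also occur in other genes, including ferritin pseudogenes, against 1.59% for Fth1, so Ftl1 counts depend on how reads with several positions were treated. The pseudogene rows Ftl1-ps1 and Ftl1-ps2 held 28 to 643 and 1 to 57 reads.

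**Figure D2:**
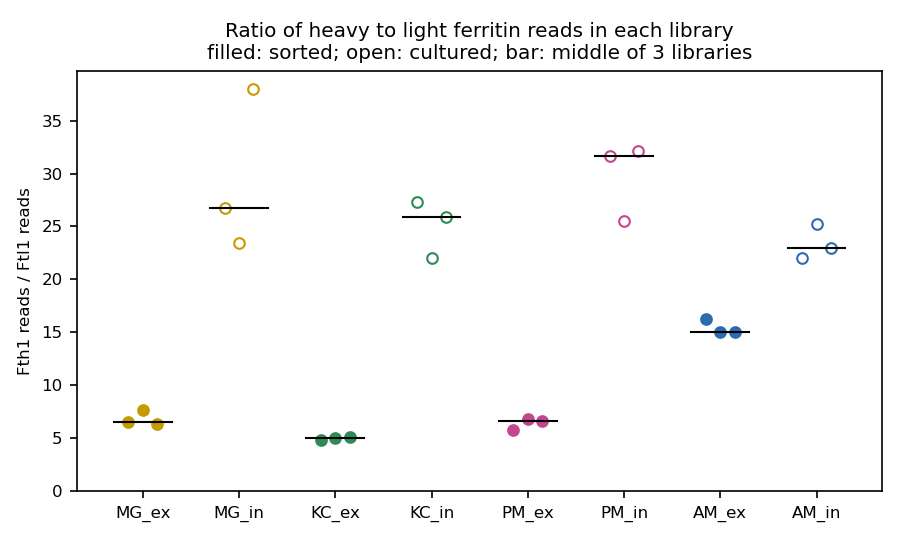
Fth1 reads divided by Ftl1 reads in each of the 24 libraries, by group, with a bar at the middle library. All cultures lie at 22 or above, sorted AM between 15.0 and 16.3, and the other sorted groups at 7.64 or below.

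Slc40a1, the one known cellular iron exporter, had the widest range of the transporters. It was at 368, 355 and 340 CPM in sorted MG, 1540, 9224 and 6894 in sorted KC, and 20.4, 8.21 and 6.76 in sorted AM. Sorted PM held 2, 12 and 0 reads (0.0668, 0.327 and 0 CPM). The cultures held 35.3, 822 and 244 CPM in MG-LCs, 359, 548 and 812 in KC-LCs, 392, 140 and 335 in PM-LCs, and 32.5, 18.2 and 18.4 in AM-LCs. Sorted KC were above every other group, and sorted PM were near the limit of detection although PM-LCs were in the range of MG-LCs and KC-LCs. In PM the log2 fold change was -11.03 ± 0.93 (adjusted p = 0.00025), a value that depends on the 14 reads of the sorted group. Without sorted PM replicate 2 it was -13.03 (adjusted p = 0.00177) and without replicate 3 -10.41 (adjusted p = 0.00172). In KC it was 3.39 ± 0.69 (adjusted p = 0.00867), with a mean 10.3 times higher in sorted cells. Without sorted KC replicate 1 it was 3.83 (adjusted p = 0.00117), and without KC-LC replicate 2 it was 3.33 (adjusted p = 0.0505). In MG, -0.09 ± 0.94 (adjusted p = 0.94), the 3 cultures spanned the sorted values, with the lowest in replicate 1, the library rich in fibroblast markers. Without it the value was -0.64 (adjusted p = 0.288), and without MG-LC replicate 2, the highest, it was 1.31 (adjusted p = 0.225). In AM it was -0.97 ± 0.46 (adjusted p = 0.12), and -1.61 (adjusted p = 0.0152) without sorted AM replicate 1.

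Slc11a1, known for its part in resistance to intracellular bacteria, was low in 1 group only. Sorted AM held 29.6, 4.58 and 2.54 CPM, against 342, 311 and 342 in sorted MG, 664, 945 and 1142 in sorted KC, and 581, 707 and 535 in sorted PM. The cultures held 171, 520 and 528 CPM in MG-LCs, 402, 607 and 654 in KC-LCs, 784, 495 and 953 in PM-LCs, and 428, 526 and 355 in AM-LCs. AM-LCs thus overlapped with the other cultures, and no sorted AM library came near them. For AM the log2 fold change was -5.17 ± 0.95 (adjusted p = 0.00399), a mean 35.7 times higher in culture. Without sorted AM replicate 1, the highest of its group, it was -6.93 (adjusted p = 0.000606). It was -0.34 ± 0.43 (adjusted p = 0.543) in MG and -0.29 ± 0.26 (adjusted p = 0.442) in PM, with overlapping groups. Without MG-LC replicate 1 the MG value was -0.71 (adjusted p = 0.00461). In KC it was 0.76 ± 0.32 (adjusted p = 0.102), and 0.94 (adjusted p = 0.0372) without sorted KC replicate 1.

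Slc48a1, the lysosomal heme transporter, was at 48.3, 55.7 and 52.8 CPM in sorted MG, 246, 322 and 361 in KC, 123, 127 and 116 in PM, and 336, 267 and 290 in AM. In culture it was at 300, 499 and 285 CPM in MG-LCs, 528, 579 and 419 in KC-LCs, 689, 707 and 708 in PM-LCs, and 441, 453 and 574 in AM-LCs. No population overlapped between sorted and cultured libraries. Fitted log2 changes were -2.84 ± 0.28 (adjusted p = 0.00146) in MG, -2.52 ± 0.15 (adjusted p = 7.19e-05) in PM and -0.74 ± 0.17 (adjusted p = 0.0104) in AM. In AM the call was lost without sorted AM replicate 2 (-0.66, adjusted p = 0.0522). In KC it was -0.68 ± 0.26 (adjusted p = 0.078). Slc48a1 shares 29 exonic bases with Hdac7 on the opposite strand, which held at most 1082 reads.

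Tfrc, which takes up iron bound to transferrin, was at 14.6, 14.3 and 13.8 CPM in sorted MG, 16.2, 35.3 and 29.0 in KC, 6.45, 12.5 and 8.11 in PM, and 9.23, 10.02 and 7.46 in AM. The cultures held 106, 78.4 and 62.5 CPM in MG-LCs, 92.3, 38.7 and 58.5 in KC-LCs, 75.7, 47.2 and 86.0 in PM-LCs, and 80.0, 44.0 and 63.9 in AM-LCs. Every culture library was above every sorted one. The difference passed in 3 of the 4 populations, with log2 fold changes, sorted minus cultured, of -2.58 ± 0.24 (adjusted p = 0.0011) in MG, -2.95 ± 0.35 (adjusted p = 0.00104) in PM and -2.82 ± 0.26 (adjusted p = 0.000251) in AM. In KC it was -1.20 ± 0.40 (adjusted p = 0.0513), and -1.48 (adjusted p = 0.05, just under the threshold) without KC-LC replicate 2. The KC difference also passed by DESeq2 (adjusted p = 0.0251), without a filter on low counts (0.049) and in one model of all 24 libraries (0.00865).

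Cd163, the receptor for hemoglobin bound to haptoglobin, was a gene of sorted KC and PM. Sorted KC held 475, 1300 and 2284 CPM and sorted PM 40.6, 76.7 and 56.6, whereas sorted MG had no read in any library and sorted AM had 8 reads in all. In culture it was at 17.0, 7.13 and 11.1 CPM in KC-LCs, 6.23, 5.10 and 6.53 in PM-LCs, and 1.18, 21.95 and 0.571 in MG-LCs. AM-LCs had 16 reads in all and the gene was not tested in AM. The log2 fold change was 6.89 ± 0.73 (adjusted p = 0.000844) in KC, a mean 115 times higher in sorted cells, and 3.28 ± 0.29 (adjusted p = 0.000321) in PM, a mean 9.74 times higher. Without sorted KC replicate 1 the KC value was 7.28 (adjusted p = 0.000329), and without replicate 3 it was 6.29 (adjusted p = 0.00253). In MG the gene was at least 344-fold higher in culture over the pooled reads, and at least 23.7-fold in the lowest culture library, against the 3-count floor of the pooled sorted group (0.0241 CPM). The adjusted p of 0.0343 was lost without sorted MG replicate 1 (0.0863), 2 (0.0833) or 3 (0.0857). DESeq2 gave no adjusted p for the gene in MG (log2 fold change -10.80) and so did not call it. Of the culture reads, 882 came from MG-LC replicate 2.

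**Figure D3:**
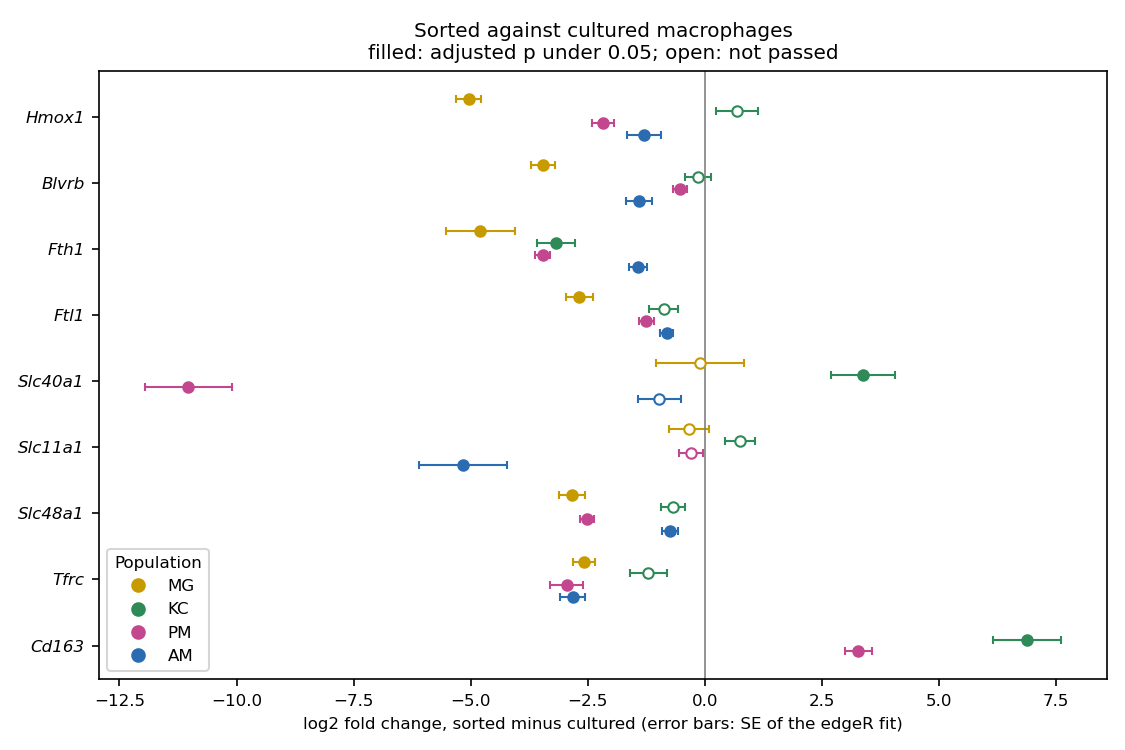
Log2 fold change, sorted minus cultured, with its standard error for each gene in each population, with filled points where the adjusted p is under 0.05. Most points lie below 0, and Slc40a1 in KC and Cd163 in KC and PM lie above it, with Cd163 in MG and AM left out for want of reads.

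The sorted populations were compared next, each with the mean log2 level of the other 3. Tissue of origin and the way each tissue was prepared cannot be told apart in these comparisons. Sorted KC held more of 8 of the 9 genes (36.5% of all genes tested differed in either direction). The exception was Fth1 (0.06 ± 0.13, adjusted p = 0.754). Slc40a1 was 9.48 ± 0.56 higher on the log2 scale (adjusted p = 1.71e-07), Hmox1 3.43 ± 0.22 (adjusted p = 3.8e-07) and Blvrb 2.09 ± 0.17 (adjusted p = 2.63e-06). Sorted MG differed in 7 genes (51.4% of all genes), with 6 lower. Among these, Hmox1 was at -3.59 ± 0.31 (adjusted p = 2.26e-06), Fth1 at -2.50 ± 0.15 (adjusted p = 1.28e-07) and Ftl1 at -2.29 ± 0.13 (adjusted p = 7.25e-08). Slc40a1 was higher (4.01 ± 0.51, adjusted p = 4.99e-05) although sorted KC held more, since the mean of the others included the 14 reads of PM. The values of Slc40a1 without sorted PM replicate 2, which held 12 of these, were 4.70 in MG and 10.16 in KC. Slc11a1, at 0.76 ± 0.51 (adjusted p = 0.239) in sorted MG, passed without sorted AM replicate 1 (1.41, adjusted p = 0.000224) and by limma-voom (1.07, adjusted p = 0.00901).

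Sorted AM differed in 7 genes (46.6% of all genes). Both ferritin chains and the heme transporter were higher, with Fth1 at 2.57 ± 0.12 (adjusted p = 1.47e-08), Slc48a1 at 1.25 ± 0.12 (adjusted p = 5.06e-06) and Ftl1 at 1.20 ± 0.11 (adjusted p = 3e-06). Blvrb, Slc40a1, Slc11a1 and Tfrc were lower. Slc11a1 was at -5.54 ± 0.76 (adjusted p = 0.000104), and at -7.37 (adjusted p = 3.15e-07) without AM replicate 1. Slc40a1, at -2.48 ± 0.67 (adjusted p = 0.0106), did not pass without sorted PM replicate 2 (-1.79, adjusted p = 0.248) or by limma-voom (-2.28, adjusted p = 0.164), and was at -3.18 (adjusted p = 0.00797) without AM replicate 1. Tfrc, at -0.75 ± 0.26 (adjusted p = 0.0342), did not pass without AM replicate 1 (0.0744), 2 (0.0577) or 3 (0.125) or PM replicate 2 (0.0518), by limma-voom (0.0523) or without a filter (0.054). Cd163, at 8 reads in all 3 sorted AM libraries, had no usable error in the edgeR fit and was called lower by limma-voom (-7.41, adjusted p = 0.0426) and DESeq2 (adjusted p = 1.4e-12).

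Sorted PM differed in 5 genes (35.9% of all genes). Slc11a1 (2.00 ± 0.49, adjusted p = 0.00742), Blvrb (1.84 ± 0.17, adjusted p = 7.41e-06) and Cd163 were higher, and Slc40a1 and Slc48a1 lower. Cd163 was higher against the mean log2 level although sorted KC held 1353 CPM on average against 57.98 in PM, since that mean included 0 reads in MG and 8 in AM. Slc11a1 was at 2.63 (adjusted p = 3.61e-06) without AM replicate 1. Slc48a1, at -0.44 ± 0.13 (adjusted p = 0.0181), missed the threshold without any one of 6 sorted libraries, which were AM replicates 1 and 3, MG replicates 2 and 3 and PM replicates 1 and 3 (adjusted p = 0.0511 to 0.0854). Ftl1 passed without KC replicate 1 (0.28, adjusted p = 0.0251), and Tfrc without KC replicate 1 (-0.76, adjusted p = 0.00987) or PM replicate 2 (-1.02, adjusted p = 0.0227) or by DESeq2 (-0.72, adjusted p = 0.0227).

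The cultures were compared in the same way. MG-LCs, KC-LCs and PM-LCs differed from the mean of the other 3 cultures in 0 of the 9 genes each, where 0.560%, 0.108% and 0.527% of all genes differed (edgeR). An unadjusted p under 0.05 was reached by 2, 3 and 2 of the genes, limma-voom called 0 in each, and DESeq2 called 1, 1 and 2. Without MG-LC replicate 2, Slc40a1 (2.55, adjusted p = 0.0395) and Cd163 (3.52, adjusted p = 0.0186) passed in KC-LCs and Slc48a1 in MG-LCs (-0.89, adjusted p = 0.0333). AM-LCs held less of 3 genes (13.1% of all genes differed). Slc40a1 was at -4.07 ± 0.85 (adjusted p = 0.0121), Cd163 at -5.36 ± 1.30 (adjusted p = 0.0229) and Blvrb at -0.75 ± 0.21 (adjusted p = 0.0417).

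These 3 calls in AM-LCs rested on single libraries, and limma-voom called 2 of them, without Cd163 (-5.20, adjusted p = 0.107). Slc40a1 did not pass without AM-LC replicate 2 (adjusted p = 0.0754) or 3 (0.0581), and Cd163 did not without AM-LC replicate 1 (0.0948), 2 (0.0593) or 3 (0.0842). The Cd163 value was -6.55 without AM-LC replicate 2 and -4.34 (adjusted p = 0.00628) without MG-LC replicate 2. Blvrb did not pass without any one of 10 culture libraries, all but KC-LC replicate 1 and MG-LC replicate 1 (adjusted p = 0.0542 to 0.173), or without a filter on low counts (0.0626). As a description, the highest group mean was 37.0 times the lowest among sorted groups and 1.96 times among cultures for Hmox1. The same ratios were 14.5 and 2.11 for Blvrb, 13.6 and 1.35 for Fth1, 5.95 and 1.67 for Ftl1, 75.0 and 1.83 for Slc11a1, 5.93 and 1.94 for Slc48a1, and 3.01 and 1.31 for Tfrc. Slc40a1 remained uneven in culture, at 24.9 times, against 44800 times among sorted groups, a ratio that rests on the 14 reads of sorted PM. Cd163 was uneven in culture too, at a mean of 11.73 CPM in KC-LCs and 0.1955 CPM in AM-LCs, which had 16 reads in all. For Cd163 no ratio among sorted groups is given, since sorted MG had no read.

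The difference between sorted and cultured cells was itself compared between populations, each against the mean of the other 3, in a model of all 24 libraries. In MG it differed for 7 of the 9 genes (19.8% of all genes tested), in KC for 7 (15.4%), in PM for 4 (13.2%) and in AM for 4 (17.1%). These tests share libraries and are not independent of each other. Hmox1 fell further below its culture level in MG than elsewhere (-4.06, adjusted p = 2e-06), and stood 3.47 higher against it in KC (adjusted p = 3.75e-05). Fth1 had a smaller difference in AM (2.40, adjusted p = 4.45e-05) and a larger in MG (-2.05, adjusted p = 0.000156). Tfrc passed in KC and in no other population (1.53, adjusted p = 0.0136), a call lost without KC-LC replicate 2 (1.27, adjusted p = 0.059).

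Other genes of iron and heme handling came from a list of 82 named genes, of which 81 had a row in the table. They moved in both directions. In MG, 21 of 65 tested were higher in culture (32.3%, against 25.2% of all genes) and 8 in sorted cells (12.3%, against 21.2%). In KC these were 16 of 63 (25.4% against 14.4%) and 11 (17.5% against 19.4%), and in PM 18 of 66 (27.3% against 16.8%) and 6 (9.09% against 12.1%). In AM they were 23 of 68 (33.8% against 25.9%) and 14 (20.6% against 22.9%). Shares higher in culture were above those of all genes and shares higher in sorted cells below them. Both directions together, the MG count of 29 was 11, 12 and 13 without sorted MG replicate 1, 2 or 3. The KC count of 27 was 16 without sorted KC replicate 2 or KC-LC replicate 1, 17 without sorted KC replicate 3 and 11 without KC-LC replicate 2. The PM count of 24 was 15, 15 and 14 without sorted PM replicate 1, 2 or 3. Medians of the log2 fold change were -0.41, -0.35, -0.28 and -0.40, further below 0 than those of all genes given above. Of the genes tested in every population, Pgrmc1, Slc11a2, Steap3 and Cisd1 were higher in all 4 cultures, as were 3.87% of all such genes, and Slc22a17 was higher in all 4 sorted populations (1.71% of all). Steap3, an endosomal ferrireductase that works with Tfrc, had log2 fold changes of -3.85 to -0.83, and Slc11a2 (DMT1), which carries ferrous iron out of the endosome, of -2.32 to -0.87.

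In KC the largest change in favour of sorted cells was Spic (8.00 ± 0.99, adjusted p = 0.0016), a transcription factor of iron-recycling macrophages, at a mean of 168 CPM in sorted KC and 0.670 in KC-LCs. Slc22a17, a lipocalin 2 receptor, followed at 7.44 ± 0.52 (adjusted p = 0.000199). Hp, haptoglobin, was also higher in sorted KC (6.12 ± 1.57, adjusted p = 0.0207), at 18.4 against 0.269 CPM, as were the summed hepatocyte markers (106 to 243 CPM against 0.192 to 0.324 CPM in KC-LCs). Haptoglobin is made mainly by hepatocytes, and their part in the result was not tested. Trf, transferrin, was higher in sorted PM (2.67 ± 0.39, adjusted p = 0.00257) and sorted AM (2.39 ± 0.25, adjusted p = 0.000372).

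In AM the largest change was Cp, ceruloplasmin, a ferroxidase (-8.99 ± 1.70, adjusted p = 0.00454), at a mean of 0.0932 CPM in sorted AM and 45.0 in AM-LCs. Lcn2, which binds bacterial siderophores, was also higher in AM-LCs (-5.92 ± 1.22, adjusted p = 0.00648). Summed neutrophil markers were 103 to 124 CPM in sorted AM and 323 to 736 in AM-LCs, nearly all of it Mmp8 (90.2, 109 and 110 against 640, 642 and 234 CPM). S100a8 was at 5.73 to 7.86 and 33.2 to 91.8 CPM, Cxcr2 went the other way (4.66 to 8.57 against 0.267 to 2.33 CPM), and Ly6g and Retnlg had no read. Fibroblast and mesothelial markers were at 0.0746 to 0.657 CPM in sorted AM and at 17.1, 181 and 1667 CPM in AM-LCs. The part of these markers in either result was not tested. In MG, Cp was at 724, 1.20 and 31.0 CPM in MG-LCs and at 1.19 to 2.24 CPM in sorted MG (-7.16 ± 2.24, adjusted p = 0.0402). MG-LC replicate 2 thus lay within the sorted range. Cp was highest in the library rich in fibroblast markers, whose part in the result was not tested. Cyb561a3, a lysosomal ferrireductase, was higher in sorted MG (2.99 ± 0.20, adjusted p = 0.000672) and sorted AM (2.92 ± 0.22, adjusted p = 0.000134).

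**Figure D4:**
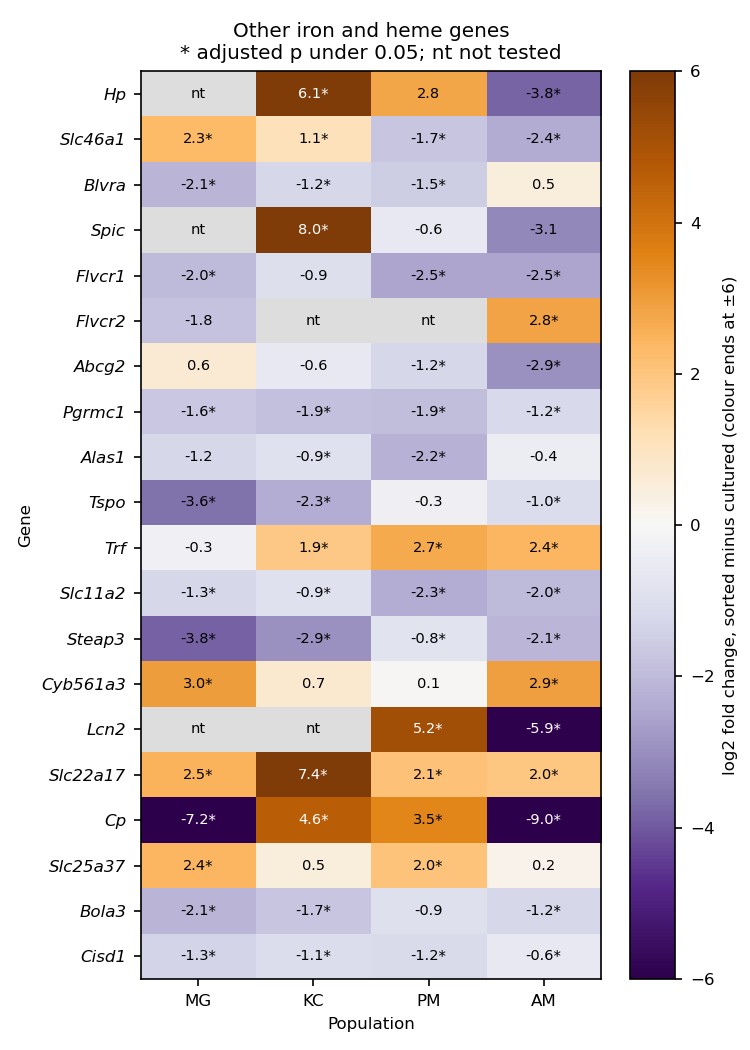
Log2 fold change, sorted minus cultured, of 20 other iron and heme genes in the 4 populations, with an asterisk where the adjusted p is under 0.05 and nt where the gene was not tested. Steap3 and Pgrmc1 are below 0 in each population and Slc22a17 above 0, whereas Cp is above 0 in KC and PM and below it in MG and AM.

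Across the 24 libraries, levels of some of the 9 genes followed each other on the log2 CPM scale. Pearson's r was 0.94 for Ftl1 and Slc48a1, 0.91 for Fth1 and Ftl1, 0.90 for Fth1 and Slc48a1 and 0.84 for Hmox1 and Blvrb. The genes most like each member over the same libraries were Id3 for Hmox1 (r = 0.925), Gpx3 for Blvrb (0.965), Gla for Fth1 (0.978), Lgals3 for Ftl1 (0.978) and Plxna1 for Slc48a1 (0.967). Gatm was most like Slc40a1 (0.913), Tmem37 most like Slc11a1 (0.954), Snap47 most like Tfrc (0.908) and Fcna most like Cd163 (0.942). These values are a description, since the libraries form 8 groups that set much of the pattern.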

How the data were processed

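Reads of 24 libraries (SMARTer cDNA, Nextera XT) were aligned and counted per gene by the authors. The submitters' processing notes name Trimmomatic 0.36, STAR 2.5.2b and the human build hg19, whereas the study's methods name the mouse build mm10. The identifiers in the table are those of mouse genes, so GRCm38 positions are given. How reads with several positions were treated, and the strand setting, are not given in the sources used here. The deposited values were used as raw counts, without pooling. Columns not matched to a sample numbered 0. Of the 45706 rows, 563 carried no symbol.

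Groups came from the labels. Main tests used edgeR 4.0.16 (R 4.3.3), with TMM normalization, filterByExpr at a minimum count of 10, glmQLFit and glmQLFTest, Benjamini-Hochberg adjustment over all genes tested and a threshold of 0.05. Sorted and cultured cells were compared within each population, and populations within the 12 sorted or 12 cultured libraries. Fold changes are those of the fit at its default prior count, and log2 CPM used a prior count of 2. limma 3.58.1, DESeq2 1.42.0, other filters, another scaling and leaving out each library were alternatives. Counts were simulated for the sorted and cultured MG libraries with the same spread for every gene and no change but those added. The fit (15299 genes tested) called 54 of 100 genes changed by 1 and 100 of 100 changed by 2 on the log2 scale. There were 5 false calls among 159. Spread in the real libraries differed between groups, so these figures do not give the power or error rate of the tests above. No 2 replicates were alike within sampling noise (chi-squared per degree of freedom 12.9 to 845). The genes and lists were chosen with earlier results of these data known. From the list of other iron genes, the text names the genes called in one direction in all 4 populations and examples from the 4 largest changes called in each direction in each population, at a mean log2 CPM above 3. Likeness is Pearson's r of log2 CPM over 24 libraries.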

Additional observations from a re-analysis of the deposited data

Results flagged for a closer look

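The size of the difference between sorted and cultured cells differed between populations for 22 of 36 combinations of gene and population, by an interaction term in a model of all 24 libraries (edgeR, adjusted over all genes). Values are the log2 difference (sorted minus cultured) of the population minus the mean of the other 3. Each population also enters the mean of the others, so the tests are not independent.

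In MG, the difference was lower for Hmox1 (-4.06), Blvrb (-2.71), Fth1 (-2.05), Ftl1 (-1.65), Slc48a1 (-1.47) and Cd163 (-14.09), and higher for Slc40a1 (2.83). The Cd163 value depends on the prior count, since sorted MG had no read. The Slc40a1 call (adjusted p = 0.0483) was lost on leaving out any one of 18 libraries, all but replicate 1 of sorted AM, 1 and 2 of sorted KC, and 2 of MG-LCs, sorted PM and PM-LCs (adjusted p = 0.0514 to 0.115), with a change of 2.29 to 2.91. It was at 4.22 without MG-LC replicate 2 and 3.50 without sorted PM replicate 2, and Cd163 was at -10.91 without MG-LC replicate 2. Slc11a1 passed in MG (1.87, adjusted p = 0.00456) and in PM (1.88, adjusted p = 0.00664) without sorted AM replicate 1.

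In KC, the difference was higher for Hmox1 (3.47), Blvrb (1.61), Slc40a1 (7.38), Slc11a1 (2.64), Slc48a1 (1.29), Tfrc (1.53) and Cd163 (9.94). Without KC-LC replicate 1 Slc11a1 was at 2.46 (adjusted p = 0.0617), and without KC-LC replicate 2 Tfrc was at 1.27 (adjusted p = 0.059). Ftl1 passed without KC-LC replicate 2 (0.90, adjusted p = 0.0277) or MG-LC replicate 1 (0.71, adjusted p = 0.0265), and by limma-voom and DESeq2 (adjusted p = 0.0451 and 0.00327). Slc40a1 was at 8.06 without sorted PM replicate 2, Slc11a1 at 3.23 without sorted AM replicate 1, and Cd163 at 9.34 without sorted KC replicate 3 and 8.88 without MG-LC replicate 2.

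In PM, it was higher for Blvrb (1.13) and Cd163 (5.19) and lower for Slc40a1 (-11.82, which rests on 14 reads in sorted PM) and Slc48a1 (-1.11). Blvrb missed the threshold without PM-LC replicate 3 (adjusted p = 0.0509). Cd163 missed it without AM-LC replicate 2 (0.0576), sorted PM replicate 2 (0.0517), PM-LC replicate 1 (0.0542) or PM-LC replicate 3 (0.054), and was at 4.13 without MG-LC replicate 2. Slc40a1 was at -13.84 without sorted PM replicate 2 and -11.22 without replicate 3.

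In AM, it was higher for Fth1 (2.40), Ftl1 (0.79) and Slc48a1 (1.29) and lower for Slc11a1 (-5.21). Ftl1 did not pass without sorted AM replicate 1 (adjusted p = 0.0994) or 3 (0.064), or AM-LC replicate 1 (0.0908) or 3 (0.0777), and Hmox1 passed without AM-LC replicate 3 (1.37, adjusted p = 0.0418). Slc11a1 was at -6.98 without sorted AM replicate 1.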

How the results depend on the processing

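No called change of the 9 genes turned its direction in 1035 results under other settings or in 1938 with a library left out. Of these, 11 and 70 lost their call and 26 and 18 gained one. Counts of genes called moved by over 1.5 times as follows. In KC, 3 of the 9 genes differed between sorted and cultured cells in the main analysis, 7 by DESeq2 and 6 in one model of all 24 libraries. Among cultures, DESeq2 called 1 gene in MG-LCs, 1 in KC-LCs and 2 in PM-LCs, against 0 in each. On leaving out each library, the count went from 3 to 5 in KC, from 0 to 1 in MG-LCs, from 0 to 2 in KC-LCs and from 0 to 3 in AM-LCs. The number of genes whose culture difference in PM differed from the mean of the other populations went from 2 to 5. Counts of the other iron genes called went from 11 to 36 in MG, from 11 to 32 in KC and from 14 to 29 in PM, against 29, 27 and 24. The cause of these moves was not tested, except that leaving out a library leaves fewer samples. Deviations of same-numbered sorted and cultured libraries from their group means correlated at -0.104 to 0.056. These values showed no pairing by replicate number. They cannot exclude one, since differences particular to single libraries can hide it. With the replicate number as a block, 7 genes differed in MG, 3 in KC, 7 in PM (Blvrb lost, adjusted p = 0.128) and 8 in AM (Slc40a1 gained, -1.09, adjusted p = 0.0163). The block gave 6 genes in place of 5 for sorted PM and changed no other count of the 9 genes. Adding pseudogene reads to Fth1 and Ftl1 changed no call of either. Depth limits Cd163 in MG and AM and Slc40a1 in sorted PM, which had 14 or fewer reads per sorted group.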
